A study of Homo sapiens with 4 samples.

Results

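Genes for mitochondrial protein import, for the chaperones that fold imported proteins and for the proteases that trim or clear them were described in WI-38 cells, a fibroblast line of human fetal lung with a limited dividing life. The members were a list of 43 nuclear genes in 6 groups by role, and 41 of them were matched to transcripts, among 19321 nuclear coding genes matched in all. TOMM6 and TIMM23 are not analysed here. There was 1 library in each of 4 groups: mitoplasts of senescent cells at population doubling level (PDL) 60, mitoplasts of young cells at PDL 21, whole senescent cells at PDL 60 and whole young cells at PDL 21. All were grown in the same medium, and the labels name no drug or genetic change. A mitoplast is a mitochondrion without its outer membrane; here mitochondria were released with CHAPS, swollen in hypotonic buffer and digested with RNase A, which degrades RNA that no membrane shields. With 1 library a group no difference has a replicate check, no test was run, and differences between libraries cannot be told apart from differences between conditions.

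Most mitochondrial proteins are encoded in the nucleus and made in the cytosol. They enter through the TOM complex of the outer membrane, and from there the SAM complex, the disulfide relay and small TIM chaperones of the intermembrane space, and the TIM22 and TIM23 translocases of the inner membrane sort them. The Hsp70 motor draws matrix proteins in, peptidases remove their targeting sequences, the Hsp60 chaperonin folds them, and the LON, CLP and AAA proteases degrade those that fail.

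Values are FPKM, which corrects for transcript length, summed per gene over transcripts annotated as protein-coding. Library depth is unknown, and an exact 0 can be a failed estimate, so such a gene is called listed at 0 and gets no fold of its own. Medians and counts keep such genes, with 1 FPKM added to both values, unless they are said to cover genes above 0 in both libraries. The libraries differed as wholes. Coding genes that reached 5 FPKM numbered 2605 in the senescent and 4509 in the young mitoplast library, against 5223 in senescent and 5560 in young whole cells. Assembled transcripts with no gene name held 97.3% of all FPKM in the senescent and 92.7% in the young mitoplast library, against 76.2% in senescent and 53.7% in young whole cells. The mitochondrially encoded MT-CO1 and MT-RNR1 were listed at 0 in both senescent libraries, where MT-CYB was above 0. Of 8 fibroblast markers, 6 in each mitoplast library, 8 in senescent and 6 in young whole cells were at 1 FPKM or more in coding transcripts, with VIM listed at 0 in senescent mitoplasts. MKI67, a marker of dividing cells, was at 0.264 FPKM in senescent and 12.1 in young whole cells. The young mitoplast library also held RNA of genes outside the mitochondrial lists. GAPDH stood at 1818 FPKM there and 953 in young whole cells, and VIM at 4312 there and 3262.5 in young whole cells. Others were lower there than in young whole cells, such as ACTB (3176 against 4530), COL1A1 (424 against 1501) and the noncoding MALAT1 (89.0 against 1265). How much RNA of the mitoplast libraries lay inside mitochondria was not tested.

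Among whole cells, those of the senescent library had their lowest ratios to young cells in the matrix chaperones HSPE1 and TRAP1, among members above 0 in both libraries, while the mortalin gene HSPA9 and the receptor genes TOMM20 and TOMM70 lay close to their level in young cells. In the senescent mitoplast library 20 of 41 members were listed at 0, and the members held 0.215% of coding FPKM. Of members that reached 5 FPKM in young whole cells 37.0% were listed at 0 there, and of other such coding genes 41.4%. In the young mitoplast library 35 of 41 members were at 1 FPKM or more, as were 7984 of all 19321 coding genes. Of the 30 members above 0 in both young libraries, 23 lay within a log2 ratio of 1 of young whole cells. Among all coding genes of that kind 11.4% were higher and 29.0% lower by 1 or more. The members held 0.433% of all coding FPKM in the young mitoplast library. That share was 0.172% in senescent and 0.242% in young whole cells. In bulk RNA, fewer cells with a transcript and fewer copies per cell cannot be told apart.

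Promoters are shown for members above 0 in both whole-cell libraries that were lower in the senescent one. Of the 8 such members, CLPP is named only. With equal sums over coding genes 3 of the 8 stayed at a log2 ratio of −1 or lower, and with median-of-ratios scaling 4 did. The sequences come from RefSeq, build GRCh38.p14, each a window of 104 bases 5′ to 3′ next to the gene's start, with capitals on motif matches. HSPD1 and HSPE1, which encode the chaperonin Hsp60 and its partner Hsp10, face away from each other with starts 105 bases apart, so 1 window on chr2:197500275-197500378, plus strand, serves both. The others are TOMM40 on chr19:44891150-44891253, plus strand, TIMM10 on chr11:57530755-57530858, minus strand, and TRAP1 on chr16:3717525-3717628, minus strand.
HSPD1 and HSPE1: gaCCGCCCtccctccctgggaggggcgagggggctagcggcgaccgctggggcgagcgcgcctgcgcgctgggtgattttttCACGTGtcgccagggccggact
TOMM40: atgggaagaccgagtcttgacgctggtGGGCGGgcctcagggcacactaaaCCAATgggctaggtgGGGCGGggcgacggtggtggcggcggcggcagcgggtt
TIMM10: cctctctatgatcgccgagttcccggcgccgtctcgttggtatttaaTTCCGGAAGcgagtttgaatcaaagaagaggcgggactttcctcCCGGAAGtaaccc
TRAP1: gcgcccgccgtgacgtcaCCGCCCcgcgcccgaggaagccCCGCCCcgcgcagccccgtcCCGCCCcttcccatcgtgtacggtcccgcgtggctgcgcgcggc

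None of the 6 motifs searched, on either strand, was in all 4 windows. The GC box GGGCGG, present in 31.9% of all 35116 windows of this length, was found in TOMM40, in TRAP1 and in the window between HSPD1 and HSPE1. The E-box CACGTG, in 3.54% of windows, was found between HSPD1 and HSPE1, 1 of 6 member windows searched. TIMM10 had 2 matches of the NRF-2 motif CCGGAAG, in 5.72% of windows, and a match of the heat shock element TTCNNGAA, in 2.65%, that overlaps 1 of them. TOMM40 had the NF-Y motif CCAAT, in 18.6%, and the NRF-1 core GCATGCG, in 2.06% of windows, was in 0 of 6 member windows. The windows of TOMM22 and MTX1 overlap other genes and are not shown; they held none of the 6 motifs. A match describes letters and is not a binding site.

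**Figure D1:**
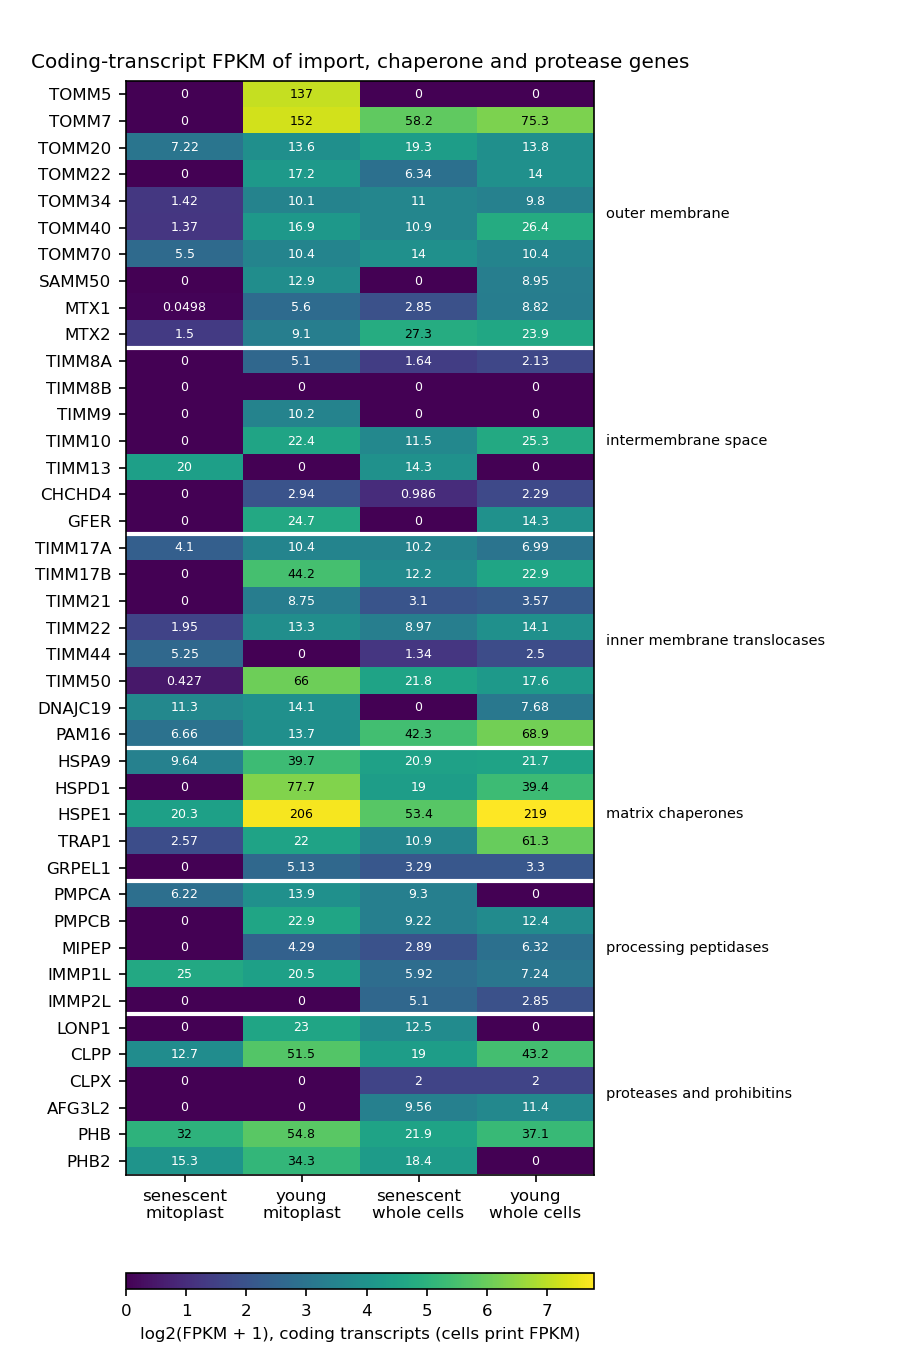
Coding-transcript FPKM of the 41 measured genes in the 4 libraries (columns: mitoplasts, then whole cells, senescent left of young in each), coloured by log2(FPKM + 1) and grouped by role. The senescent mitoplast column has 20 genes listed at 0 and the young mitoplast column 6, against 6 in senescent and 7 in young whole cells.

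At the outer membrane, 10 of 11 members were measured. TOMM40, the channel of the TOM complex, was at 1.37 FPKM in the senescent and 16.9 in the young mitoplast library, against 10.9 in senescent and 26.4 in young whole cells. TOMM22, the central receptor that holds the complex together, was listed at 0 in the senescent and at 17.2 FPKM in the young mitoplast library, against 6.34 in senescent and 13.96 in young whole cells. Both were thus lower in the senescent library of each fraction, with log2 ratios in whole cells of −1.20 for TOMM40 and −1.03 for TOMM22. The primary receptors behaved otherwise in whole cells. TOMM20, which binds presequences, was at 7.22 FPKM in the senescent and 13.6 in the young mitoplast library, against 19.3 in senescent and 13.8 in young whole cells. TOMM70, the receptor for carrier precursors handed over by cytosolic chaperones, was at 5.50 FPKM in the senescent and 10.4 in the young mitoplast library, against 13.98 in senescent and 10.4 in young whole cells. The ratios of senescent over young whole cells were 0.45 for TOMM20 and 0.39 for TOMM70, both above the all-gene median of −0.18 and short of the ratio of 1 used as the cutoff here.

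Of the small TOM subunits, TOMM7, which acts in the stability of the complex, was listed at 0 in the senescent and at 152 FPKM in the young mitoplast library, against 58.2 in senescent and 75.3 in young whole cells. TOMM5 was listed at 0 in the senescent mitoplast library, at 137 FPKM in young mitoplasts, and at 0 in both whole-cell libraries. The TOMM5 locus also holds other coding genes and an assembled transcript at 9.65 FPKM in senescent and 18.7 in young whole cells that could not be given to a gene. TOMM34, a cytosolic cochaperone of precursors, was at 1.42 FPKM in the senescent and 10.1 in the young mitoplast library, against 11.0 in senescent and 9.80 in young whole cells. In whole cells its ratio was 0.15, and −0.34 once an assembled transcript of its locus in young cells is counted.

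The SAM complex inserts barrel proteins into the outer membrane. SAMM50, its core, was listed at 0 in senescent mitoplasts and at 12.9 FPKM in young mitoplasts, and was listed at 0 in senescent and at 8.95 in young whole cells. An Ensembl transcript in the same locus that was matched to no gene stood at 7.78 FPKM in senescent and 7.03 in young whole cells, so the 0 of SAMM50 is no measure of the locus. The metaxins MTX1 and MTX2 join SAMM50 in the complex. MTX2 was at 1.50 FPKM in the senescent and 9.10 in the young mitoplast library, against 27.3 in senescent and 23.9 in young whole cells. MTX1 was at 0.0498 FPKM in the senescent and 5.60 in the young mitoplast library, against 2.85 in senescent and 8.82 in young whole cells. The ratios in whole cells were −1.35 for MTX1 and 0.19 for MTX2. For MTX1 the sign turns to 0.25 when noncoding transcripts are added, because a processed transcript of 935 nt stood at 7.79 FPKM in senescent and at 0 in young whole cells.

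In the intermembrane space, small TIM proteins chaperone hydrophobic precursors across, and CHCHD4 and GFER form the disulfide relay that traps cysteine-rich proteins there. TIMM10 was listed at 0 in the senescent and at 22.4 FPKM in the young mitoplast library, against 11.5 in senescent and 25.3 in young whole cells, a ratio of −1.08 in whole cells. TIMM9, which forms a ring with TIMM10, was listed at 0 in 3 libraries and at 10.2 FPKM in young mitoplasts. TIMM13 had the reverse pattern, at 20.0 FPKM in the senescent and listed at 0 in the young mitoplast library, and at 14.3 in senescent and listed at 0 in young whole cells. Assembled transcripts in the locus that TIMM13 shares with LMNB2 stood at 0 in the senescent and 19.5 FPKM in the young mitoplast library, against 4.99 in senescent and 29.5 in young whole cells. Which of these genes they cover is not known, so the direction of TIMM13 was not settled. GFER, the oxidase of the relay, was listed at 0 in senescent mitoplasts and at 24.7 FPKM in young mitoplasts, against 0 in senescent and 14.3 in young whole cells. Assembled transcripts in the GFER locus stood at 2.85 FPKM in senescent and 2.02 in young mitoplasts, against 1.97 in senescent and 1.07 in young whole cells. The 0 of GFER is thus no measure of the locus. CHCHD4 reached at most 2.94 FPKM, TIMM8A at most 5.10 (both in young mitoplasts), and TIMM8B was listed at 0 in every library.

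The TIM23 translocase and its motor pass presequence proteins through or into the inner membrane. TIMM50, the receptor of this translocase, was at 0.427 FPKM in the senescent and 66.0 in the young mitoplast library, against 21.8 in senescent and 17.6 in young whole cells. Summed over coding transcripts it was thus lowest in senescent mitoplasts and highest in young ones, with whole cells between and near each other. Its coding value came from a transcript of 786 nt in both whole-cell libraries. In mitoplasts it came from other transcripts, of 769 nt in the senescent library and of 680 and 1612 nt in the young one. TIMM17B, a subunit of the channel, was listed at 0 in the senescent and at 44.2 FPKM in the young mitoplast library, against 12.2 in senescent and 22.9 in young whole cells. Its paralogue TIMM17A was at 4.10 FPKM in the senescent and 10.4 in the young mitoplast library, against 10.2 in senescent and 6.99 in young whole cells. In whole cells the paralogues had opposite signs, with ratios of −0.85 for TIMM17B and 0.48 for TIMM17A, neither past 1. With all annotated transcripts TIMM17A turned to −0.11, since a noncoding transcript of 821 nt stood at 19.9 FPKM in senescent and 25.6 in young whole cells. TIMM22, the channel for carrier proteins, was at 1.95 FPKM in the senescent and 13.3 in the young mitoplast library, against 8.97 in senescent and 14.1 in young whole cells.

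Around the motor, PAM16, a regulator of its J proteins, was at 6.66 FPKM in the senescent and 13.7 in the young mitoplast library, against 42.3 in senescent and 68.9 in young whole cells. In coding transcripts PAM16 was lower in mitoplasts than in whole cells at both ages, and the readthrough gene CORO7-PAM16 was listed at 0 in every library. Assembled transcripts in the locus that PAM16 shares with CORO7 stood at 0 in the senescent and 29.0 FPKM in the young mitoplast library. In whole cells they stood at 7.59 in senescent and 16.0 in young ones. Which of these genes they cover is not known, so the size of the PAM16 ratios was not settled. DNAJC19, a J protein of the inner membrane, was at 11.3 FPKM in the senescent and 14.1 in the young mitoplast library, against 0 in senescent and 7.68 in young whole cells. TIMM21, which couples the translocase to the respiratory chain, was listed at 0 in senescent mitoplasts and at 8.75 FPKM in young mitoplasts, against 3.10 in senescent and 3.57 in young whole cells. TIMM44, which tethers mitochondrial Hsp70 to the channel, was at 5.25 FPKM in the senescent and listed at 0 in the young mitoplast library, against 1.34 in senescent and 2.50 in young whole cells.

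Among the matrix chaperones, HSPE1 had the highest level of all measured members in both young libraries. HSPE1 (Hsp10) was at 20.3 FPKM in the senescent and 206 in the young mitoplast library, against 53.4 in senescent and 219 in young whole cells. Its log2 ratio of senescent over young was −3.28 in mitoplasts and −2.02 in whole cells, and 1 coding transcript of 570 nt carried its whole value in every library. The readthrough gene HSPE1-MOB4 stood at 27.8 FPKM in senescent whole cells and was listed at 0 in the other libraries, and its sum with HSPE1 stays under the HSPE1 level of young whole cells. HSPD1 (Hsp60) was listed at 0 in the senescent and at 77.7 FPKM in the young mitoplast library, against 19.0 in senescent and 39.4 in young whole cells. Its ratio in whole cells was −1.02, just past 1, and was −0.75 with equal sums over coding genes and −0.84 with median-of-ratios scaling. Genes of this pair, which share a promoter window, were thus both lower in senescent whole cells, and HSPE1 by more.

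TRAP1, the mitochondrial relative of Hsp90, was at 2.57 FPKM in the senescent and 22.0 in the young mitoplast library, against 10.9 in senescent and 61.3 in young whole cells. In mitoplasts the ratio of senescent over young was −2.69, and −0.49 with all annotated transcripts, since a transcript of 521 nt typed as a target of nonsense-mediated decay stood at 12.8 FPKM in senescent and 0 in young mitoplasts. In whole cells TRAP1 had the lowest ratio of members above 0 in both libraries, −2.39, and −3.32 with all annotated transcripts. Of its 61.3 FPKM in young whole cells, 39.9 came from a coding transcript of 645 nt that was listed at 0 in senescent cells, while the transcript of 2296 nt stood at 10.9 in senescent and 21.4 in young cells. HSPA9 (mortalin), the Hsp70 of the import motor, was at 9.64 FPKM in the senescent and 39.7 in the young mitoplast library, against 20.9 in senescent and 21.7 in young whole cells. The whole-cell libraries thus hardly differed in its coding transcript (ratio −0.06), although most HSPA9 signal lay outside it. A transcript of 482 nt typed as a target of nonsense-mediated decay stood at 82.8 FPKM in senescent and 121 in young whole cells. GRPEL1, the nucleotide exchange factor of mortalin, was listed at 0 in the senescent and at 5.13 FPKM in the young mitoplast library, against 3.29 in senescent and 3.30 in young whole cells. A noncoding transcript of 424 nt of GRPEL1 stood at 1.28 FPKM in the senescent whole-cell library, against 16.3 in the young one, and with it the ratio of senescent over young whole cells was −1.88.

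Of the peptidases, PMPCA and PMPCB form the enzyme that cuts presequences in the matrix. PMPCB, its catalytic subunit, was listed at 0 in the senescent and at 22.9 FPKM in the young mitoplast library, against 9.22 in senescent and 12.4 in young whole cells. PMPCA was at 6.22 FPKM in the senescent and 13.9 in the young mitoplast library, against 9.30 in senescent and 0 in young whole cells. That 0 stood beside an assembled transcript at 13.1 FPKM in the PMPCA locus of young whole cells. IMMP1L, a subunit of the inner membrane peptidase, was at 25.0 FPKM in the senescent and 20.5 in the young mitoplast library, against 5.92 in senescent and 7.24 in young whole cells. On unscaled coding values it was the only measured member past a ratio of 1 over whole cells in the mitoplasts of both ages, with 1.91 in senescent and 1.38 in young cells, and its leading transcript is 314 nt long. The other subunit gene, IMMP2L, was listed at 0 in both mitoplast libraries and stood at 5.10 FPKM in senescent and 2.85 in young whole cells. MIPEP, the intermediate peptidase, reached at most 6.32 FPKM, in young whole cells.

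Among proteases, CLPP, the proteolytic chamber of the CLP complex, was at 12.7 FPKM in the senescent and 51.5 in the young mitoplast library, against 19.0 in senescent and 43.2 in young whole cells. Its whole-cell ratio of −1.15 rested on a transcript of 480 nt, at 8.14 FPKM in senescent and 28.4 in young cells, and was −0.42 over transcripts of 600 nt or more. CLPX, which feeds proteins to CLPP, was listed at 0 in both mitoplast libraries and at 2.00 FPKM in both whole-cell libraries. LONP1, the main soluble protease of the matrix, was listed at 0 in the senescent and at 23.0 FPKM in the young mitoplast library, against 12.5 in senescent and 0 in young whole cells. AFG3L2, a subunit of the inner membrane AAA protease that faces the matrix, was listed at 0 in both mitoplast libraries and stood at 9.56 FPKM in senescent and 11.4 in young whole cells.

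The prohibitins form a ring scaffold in the inner membrane. PHB was at 32.0 FPKM in the senescent and 54.8 in the young mitoplast library, against 21.9 in senescent and 37.1 in young whole cells. Its ratio of senescent over young was −0.76 in mitoplasts and −0.73 in whole cells, and with equal sums over coding genes the signs were opposite, 0.85 in mitoplasts and −0.47 in whole cells. The transcripts behind these values differed, since the 32.0 FPKM of senescent mitoplasts came from a transcript of 534 nt that was listed at 0 in the other libraries. PHB2 was at 15.3 FPKM in the senescent and 34.3 in the young mitoplast library, against 18.4 in senescent and 0 in young whole cells. The PHB2 locus also holds the small RNA gene SCARNA12, and assembled transcripts that could not be given to either gene stood there at 46.5 FPKM in young mitoplasts and 72.4 in young whole cells, and at 0 in both senescent libraries. The direction of PHB2 in whole cells was therefore not settled.

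The first comparison asked which of these genes differ with senescence in whole cells. Of 38 members at 1 FPKM or more in either library, 4 were higher and 11 lower with a log2 ratio past 1, against 15.5% higher and 22.3% lower among all coding genes. All 4 higher members (TIMM13, PMPCA, LONP1 and PHB2) were listed at 0 in young cells and 3 of the lower ones (SAMM50, GFER and DNAJC19) were listed at 0 in senescent cells. Among the 31 members above 0 in both libraries, 0 were higher and 8 lower, or 25.8%, against 10.4% higher and 17.8% lower among all coding genes of that kind. The 8 were TOMM22, TOMM40, MTX1, TIMM10, HSPD1, HSPE1, TRAP1 and CLPP. The median ratio of the 38 was −0.38, or −0.20 relative to the all-gene median of −0.18, a shift that was small beside the range of −2.39 to 0.66 between members above 0 in both libraries. By role, the median was −0.37 at the outer membrane, −0.73 in the intermembrane space, −0.59 for inner membrane translocases, −1.02 for matrix chaperones, −0.25 for peptidases and −0.11 for proteases with prohibitins. These medians keep members listed at 0 in a library, in that order 1 of 9, 2 of 5, 1 of 8, 0 of 5, 1 of 5 and 2 of 6. TIMM13 and PHB2, whose direction was not settled, are among them.

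**Figure D2:**
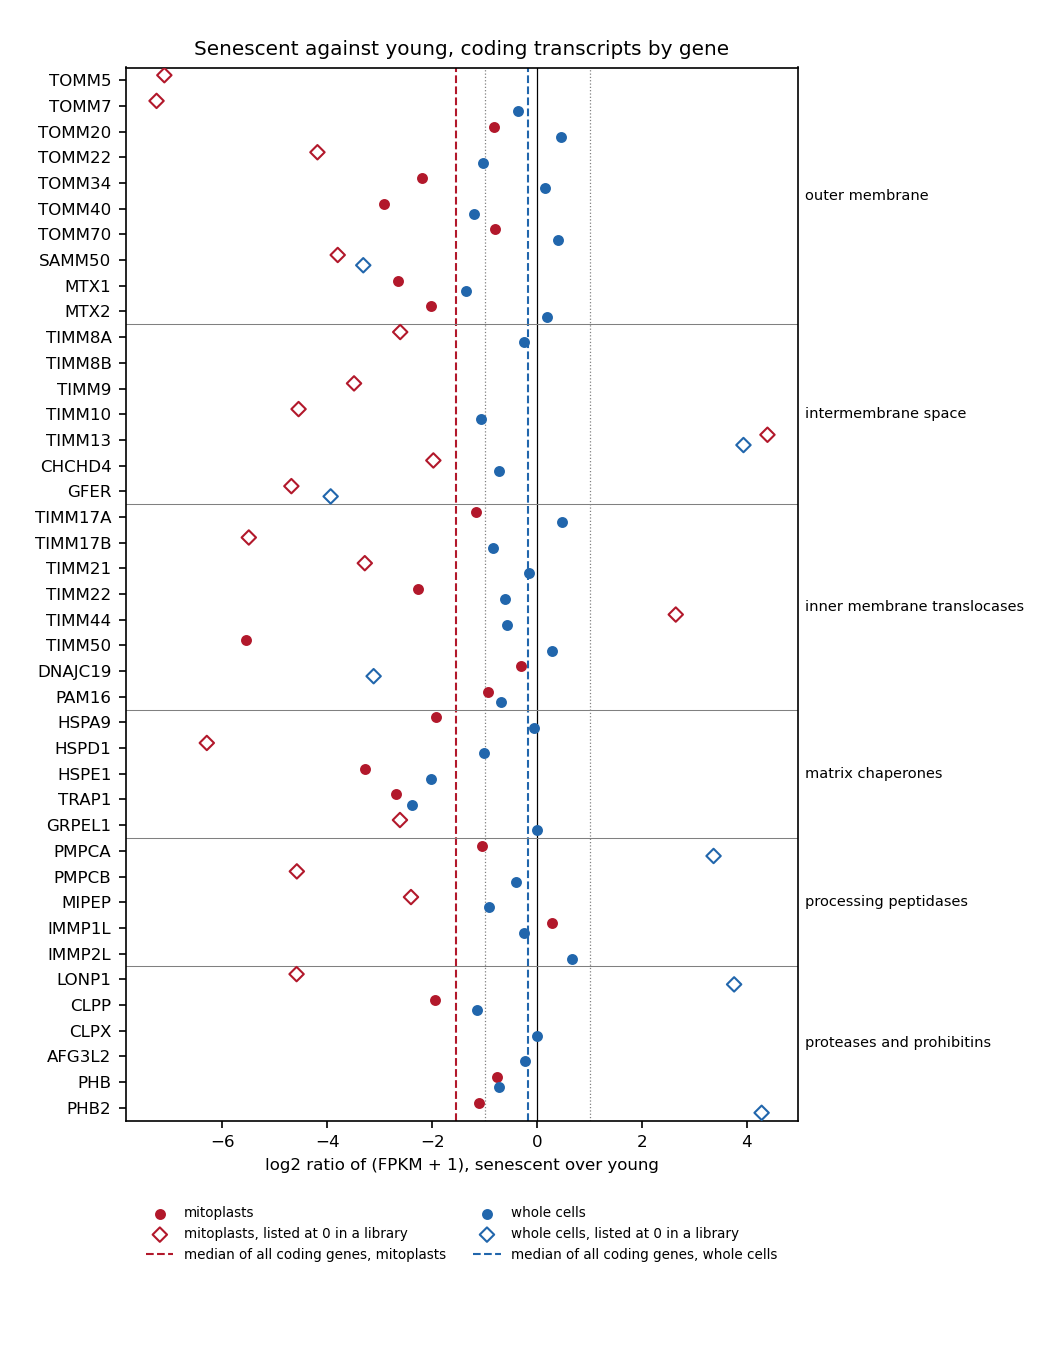
Log2 ratio of (FPKM + 1), senescent over young, for each gene in mitoplasts (red) and whole cells (blue). Open diamonds mark genes listed at 0 in a library of the pair, dotted lines a ratio of 1 in either direction and dashed lines the median of all coding genes, −1.55 in mitoplasts and −0.18 in whole cells; HSPE1 and TRAP1 lie left of −2 in both fractions, TRAP1 in mitoplasts at −0.49 once noncoding transcripts are added.

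The 8 lower members were not equally firm. Under every alternative that gave them a value, HSPE1 stayed at −1.75 or lower and TRAP1 at −2.12 or lower. For TRAP1, however, the cutoff of 600 nt kept its transcript of 645 nt, which only the young whole-cell library held (39.9 FPKM). Its transcript of 2296 nt alone differed by less (young 21.4 FPKM, senescent 10.9). For HSPE1, no alternative added the readthrough gene HSPE1-MOB4, which had 27.8 FPKM in the senescent whole-cell library only. TOMM22 was at −0.66 with all annotated transcripts, and TOMM40 at −0.87 when assembled ones were added too. With those settings 6 and 5 of the 8 stayed at −1 or lower. With equal sums over coding genes 3 of the 8 stayed at −1 or lower, and with median-of-ratios scaling 4 did. These scalings changed the counts over all 38 members to 4 higher and 6 lower with equal sums and to 4 higher and 7 lower with median-of-ratios scaling. Among all coding genes 18.4% were higher and 16.9% lower with equal sums, and 16.3% higher and 17.9% lower with median-of-ratios scaling. The lower members made up 15.8% and 18.4%, so their share was near that of all coding genes under both. TIMM10 turned to 0.18 over transcripts of 600 nt or more, because its transcript of 680 nt stood at 11.5 FPKM in senescent and 10.0 in young cells and the difference lay in shorter ones. HSPE1, with a transcript of 570 nt, has no value there.

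**Figure D3:**
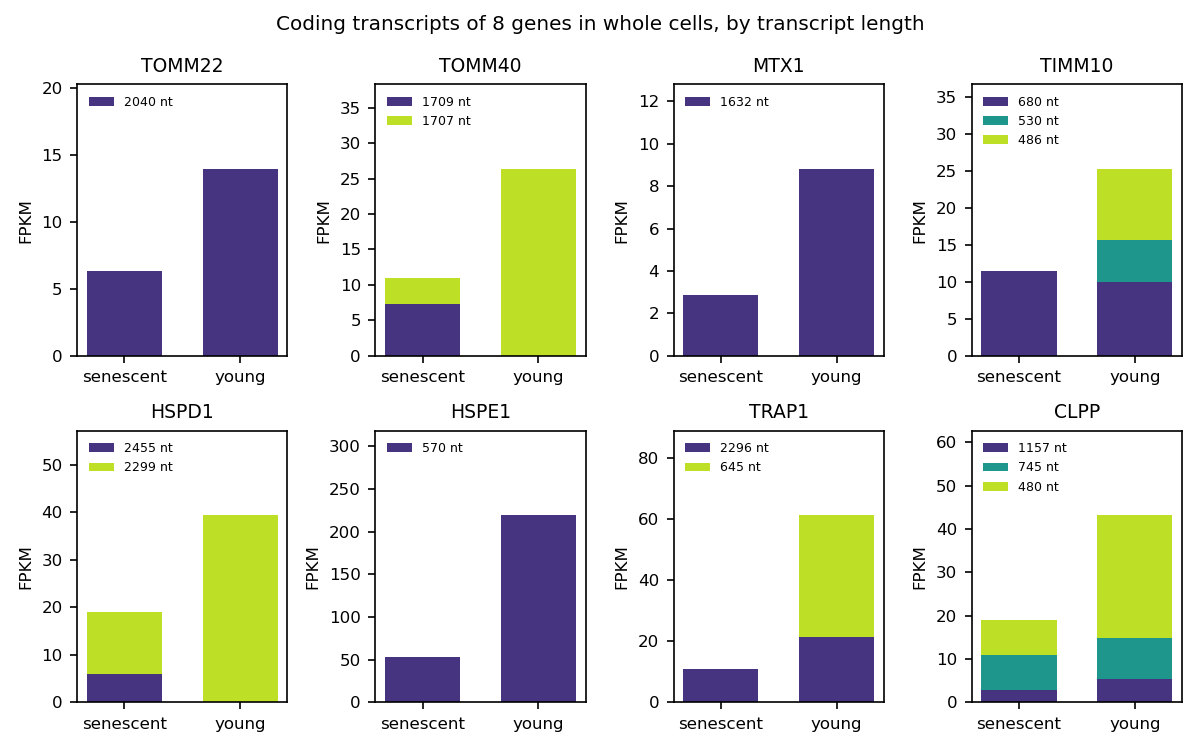
Coding transcripts of the 8 genes that were lower in senescent whole cells and above 0 in both libraries, stacked by annotated length (bars, FPKM; senescent left, young right). TOMM22, MTX1 and HSPE1 each rest on 1 transcript, while in TRAP1, TIMM10 and CLPP short transcripts carry much or all of the difference.

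The second comparison set senescent against young mitoplasts. Of 37 members compared, 2 were higher and 29 lower, or 78.4%, against 15.6% higher and 64.9% lower among all coding genes. The median was −2.61, or −1.06 relative to the all-gene median of −1.55. TIMM13 and TIMM44, the higher ones, were both listed at 0 in young mitoplasts, and 16 of the lower ones were listed at 0 in senescent mitoplasts. Among the 19 members above 0 in both, 0 were higher and 13 lower, or 68.4%, with a median of −1.94, against 15.0% higher and 45.4% lower among all coding genes with a median of −0.82. The 6 that did not pass a ratio of 1 were TOMM20, TOMM70, DNAJC19, PAM16, IMMP1L and PHB, with ratios between −0.94 for PAM16 and 0.28 for IMMP1L. Under equal sums 8 of the 19 changed sign, among them DNAJC19 at 1.26, PHB at 0.85, TOMM20 at 0.69, TOMM70 at 0.67 and PAM16 at 0.57, and under median-of-ratios scaling 7 did. TIMM50 had the lowest ratio of members above 0 in both, −5.55, with different coding transcripts behind its value in each library. The senescent mitoplast library as a whole held fewer detected genes, and its part in these values was not tested. Of 27 members that reached 5 FPKM in young whole cells, 10, or 37.0%, were listed at 0 in senescent mitoplasts, and of other such coding genes 41.4% were.

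The third comparison set mitoplasts against whole cells in young cells. Of 39 members compared, 9 were higher and 7 lower in mitoplasts than in whole cells, against 18.5% higher and 36.2% lower among all coding genes. The median was 0.49, or 0.89 relative to the all-gene median of −0.40. With all annotated transcripts in place of coding ones, the members' median was 0.05 and that of all genes −0.33. The other gene lists described below differed in coding transcripts. Their medians were −0.10 for other import genes, −1.35 for other chaperones, proteases and peptidases, 0.05 for cytosolic chaperones and −0.53 for the regulators. Among the 30 members above 0 in both libraries, TOMM7, TIMM21, TIMM50 and IMMP1L were higher and MTX2, PAM16 and TRAP1 lower, against 11.4% higher and 29.0% lower among all coding genes of that kind. With all annotated transcripts TIMM21 was at 0.049. TIMM50 had the highest of these ratios, 1.85, and PAM16 the lowest, −2.25. The TIMM50 ratio set different transcripts against each other, and the PAM16 locus also held assembled transcripts that could not be given to a gene. HSPE1 (−0.09), TOMM20 (−0.03), TOMM70 (−0.01) and TOMM34 (0.04) had nearly the same FPKM in the young mitoplast library as in young whole cells. Rescaling raised the count of higher members to 16 with 6 lower under equal sums, and to 16 with 5 lower under median-of-ratios scaling. Among all coding genes 22.4% were higher and 30.4% lower under equal sums, and 24.1% higher and 28.6% lower under median-of-ratios scaling. Of the 27 members that reached 5 FPKM in young whole cells, 1, or 3.70%, was listed at 0 in young mitoplasts, and of other such coding genes 10.9% were.

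**Figure D4:**
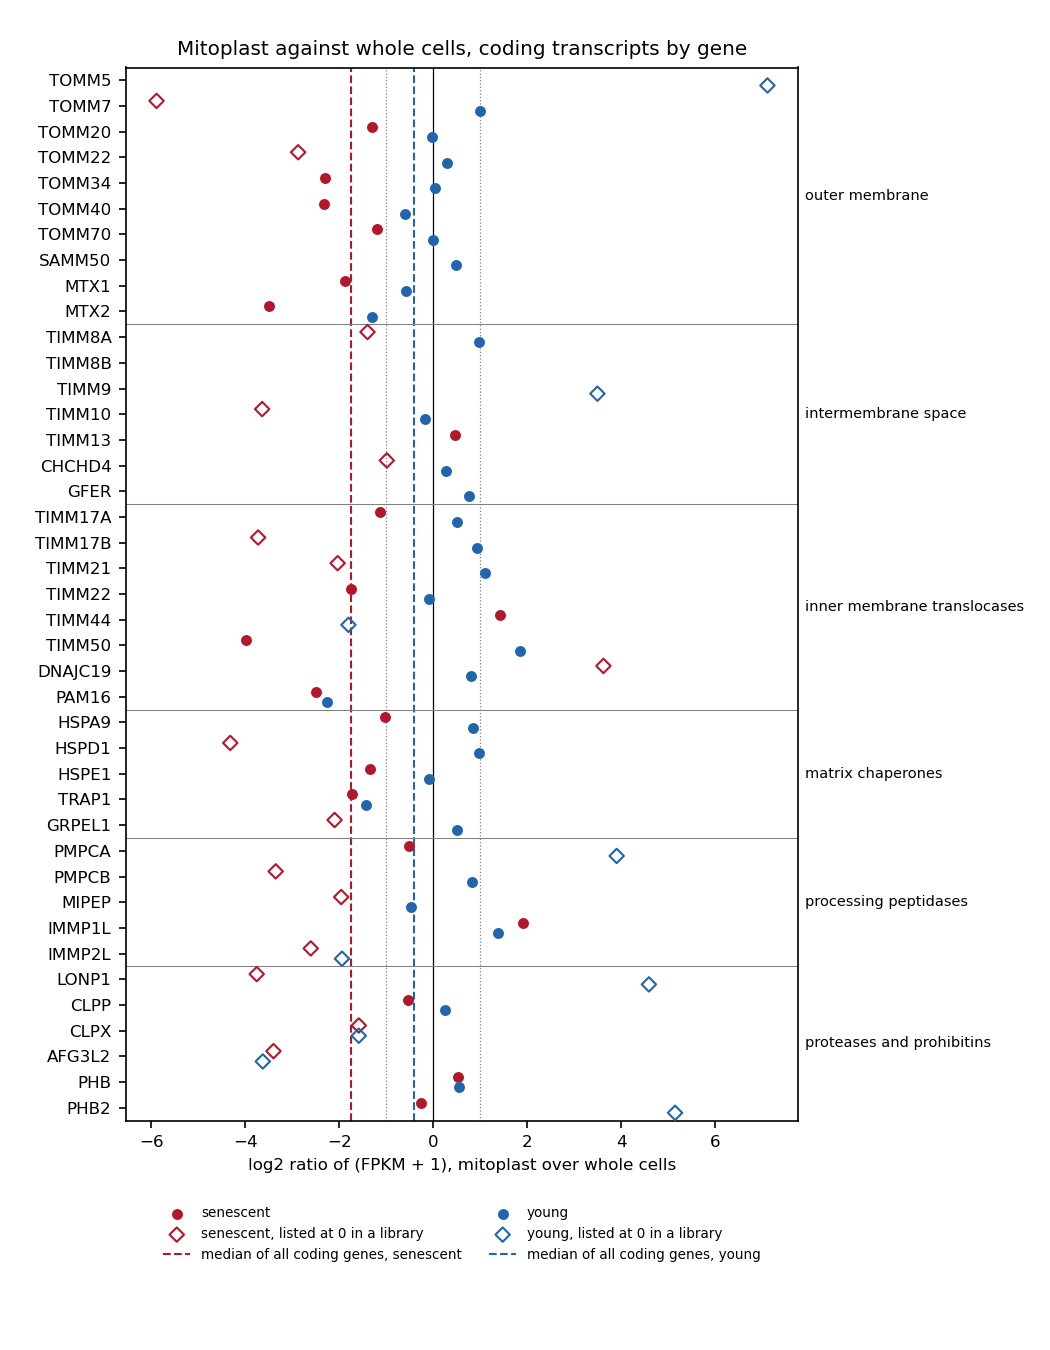
Log2 ratio of (FPKM + 1), mitoplast over whole cells, for each gene in senescent (red) and young (blue) cells. Open diamonds mark genes listed at 0 in a library of the pair, dotted lines a ratio of 1 in either direction and dashed lines the all-gene medians of −1.76 in senescent and −0.40 in young cells; most red points lie left of 0 and blue points scatter around or right of it.

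The fourth comparison set mitoplasts against whole cells in senescent cells. Of 35 members compared, 3 were higher and 27 lower, or 77.1%, against 13.3% higher and 70.5% lower among all coding genes. The median of −1.87 was −0.11 relative to the all-gene median of −1.76, so at this setting the members lay close to the shift of the library. With 0.1 FPKM added in place of 1, the members' median was −2.91 and that of all genes −3.59. With a filter of 5 FPKM these medians were −1.76 for members and −2.42 for all genes. Among the 20 members above 0 in both, TIMM44 and IMMP1L were higher and 13 lower, or 65.0%, against 12.5% higher and 54.4% lower among all coding genes of that kind. TIMM13, PMPCA, CLPP, PHB and PHB2 differed by less than 1, with PHB at 0.53 and CLPP at −0.55. Equal sums gave 8 higher and 19 lower, and median-of-ratios scaling 6 higher and 20 lower, and under either 8 of the 20 changed sign. Among all coding genes 25.7% were higher and 53.4% lower under equal sums, and 23.7% higher and 54.0% lower under median-of-ratios scaling. These comparisons share libraries, so their values for a member are not independent of each other.

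Which transcript of a gene held its FPKM also varied. Of 22 members above 0 in all 4 libraries, 8 had the same leading transcript throughout: TOMM20, TOMM34, TOMM70, TIMM17A, TIMM22, HSPE1, IMMP1L and CLPP. In both whole-cell libraries the leading transcript was the same in 26 of 32 members above 0 in both. A transcript typed as coding led in 17 of 25 members in senescent mitoplasts and 31 of 37 in young mitoplasts, against 27 of 35 in senescent and 25 of 35 in young whole cells. Coding transcripts held 61.5% of the members' annotated FPKM in the senescent and 80.4% in the young mitoplast library, against 71.6% in senescent and 69.5% in young whole cells. Over other coding genes the share was 40.9% in the senescent and 65.6% in the young mitoplast library, and 64.4% in senescent and 64.0% in young whole cells. HSPA9, TIMM17A, TIMM44 and CLPX were led by a noncoding transcript in all 4 libraries.

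Other genes of the pathway gave a background to the members. In whole cells, 9 of 16 other import genes were compared, with 1 higher and 2 lower, against 15.5% higher and 22.3% lower among all coding genes. The higher one was MTCH2, an insertase of the outer membrane, at 2.36 FPKM in senescent cells and listed at 0 in young cells in coding transcripts, but at 11.7 in senescent and 31.2 in young cells over all annotated transcripts. The lower ones were ROMO1, a small inner membrane protein, at 92.2 FPKM in senescent and 237 in young cells, and DNAJC11, a J protein, at 2.12 in senescent and 11.0 in young cells. Of 15 other mitochondrial chaperones, proteases and peptidases, 11 were compared, with 0 higher and 5 lower. Among these, DNAJA3, a J protein of the matrix, stood at 3.68 FPKM in senescent and 21.0 in young cells, and STOML2, a scaffold of the inner membrane, at 10.7 in senescent and 30.4 in young cells. The protease genes YME1L1 and SPG7 differed by less than 1, YME1L1 at 28.8 FPKM in senescent and 33.2 in young cells and SPG7 at 58.5 in senescent and 70.3 in young cells.

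Of 8 cytosolic chaperones that hand precursors to mitochondria, 0 were higher and 1 was lower with senescence in whole cells. Among all coding genes 15.5% were higher and 22.3% lower. HSPA1A, the inducible Hsp70, was at 4.04 FPKM in senescent and 14.2 in young cells. HSPA8, its constitutive relative, was at 328 in senescent and 224 in young cells, and HSP90AA1 at 198 in senescent and 123 in young cells, both short of a ratio of 1. Of 5 regulators known from the mitochondrial unfolded protein response, 3 were compared and CEBPB was lower, at 6.58 FPKM in senescent and 33.4 in young cells. ATF5 was at 10.8 in senescent and 13.2 in young cells, while ATF4 and DDIT3 were listed at 0 in every library.

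In mitoplasts, 3 other import genes were higher and 9 lower of 13 compared between ages, and 3 other chaperones, proteases or peptidases were higher and 5 lower of 10. Among all coding genes 15.6% were higher and 64.9% lower in that comparison. LACTB, a filament-forming protein of the intermembrane space, was at 48.5 FPKM in senescent and 6.32 in young mitoplasts, and PARL, a rhomboid protease, at 33.3 in senescent and 7.30 in young mitoplasts. Over all annotated transcripts LACTB was at 48.5 in senescent and 53.1 in young mitoplasts, so its higher level did not hold there, while PARL kept its values. PITRM1, which degrades cleaved presequences, was listed at 0 in senescent mitoplasts and stood at 20.4 FPKM in young ones. Of the 8 cytosolic chaperones 7 were lower in senescent mitoplasts, HSPA8 at 46.9 FPKM in senescent and 231 in young ones. In young cells, DNAJB1 was at 54.1 FPKM in mitoplasts and 24.2 in whole cells, the 1 cytosolic chaperone that was higher there, and SPG7 was listed at 0 in mitoplasts and stood at 70.3 in whole cells. Of all coding genes 18.5% were higher in young mitoplasts than in young whole cells. In senescent cells SPG7 was at 1.75 FPKM in mitoplasts and 58.5 in whole cells.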

How the data were processed

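The deposited files give FPKM per transcript, per the file headers, for 393483 transcripts in each of 4 libraries. Tools named, per the submitters' processing notes, are Cuffdiff, Cufflinks 2.2.1 and TopHat2 2.0.14, with build hg19 and no stated roles. Annotation release and strand setting: not given in the sources used here. Files hold no counts or intervals, so depth is unknown. Of 185591 Ensembl transcripts, 93.0% were matched to symbols and types through GENCODE 29 and a symbol table (PHB is the current PHB1). A gene's value was the summed FPKM of its coding transcripts. Ratios are log2((A + 1)/(B + 1)), which understates changes of low genes, for genes at 1 FPKM or more in a library of the pair; calls are past a ratio of 1, with no test. Full values are given for members that reached 10 FPKM in any library, with others added where described. The members and lists were chosen with earlier results of these data known. Alternatives were 9 planned settings and 1 added after seeing the data. Scripts (Python 3.11.15, pandas 2.3.3, numpy 2.4.6) were tested on simulated data.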

Additional observations from a re-analysis of the deposited data

Results flagged for a closer look

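Several results stood apart within the design or lay in data that the comparisons above did not use. The members' median log2 ratio of mitoplast over whole cells was −1.87 in senescent and 0.49 in young cells, and the difference between the ages was not tested. TIMM50 moved in opposite directions under the same contrast, with a ratio of −3.99 in senescent and 1.85 in young cells, also not tested. Its coding value came from different transcripts in mitoplasts and whole cells, and from different ones in the senescent and young mitoplast libraries. Outside coding transcripts, TOMM7 had a noncoding transcript at 33.9 FPKM in senescent mitoplasts, where its coding value was listed at 0. PMPCB had a transcript typed as a target of nonsense-mediated decay at 10.2 FPKM in that library, and HSPD1 an assembled transcript at 10.9 FPKM there, again beside coding values listed at 0. TIMM44 had noncoding transcripts at 13.0 FPKM in young mitoplasts. In young whole cells, assembled transcripts stood at 72.4 FPKM in the PHB2 locus, which also holds SCARNA12, and at 13.1 FPKM in the PMPCA locus, where the coding values of both were listed at 0.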

How the results depend on the processing

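No paired analysis was possible because each group has 1 library. The main limits are the unknown depth, the exact zeros and the short transcripts that carry part of several values. Of the medians and counts recomputed under 10 settings, 97 stayed within 1.5 times the reported count or 0.5 of the reported median and 23 did not; the cause was not tested beyond what a setting's construction shows. With members above 0 in both libraries only, the counts were 0 higher in senescent against young whole cells, 0 higher and 13 lower in senescent against young mitoplasts (median −1.94), 4 higher and 3 lower in mitoplast against whole young cells, and 13 lower in mitoplast against whole senescent cells (median −1.25). Equal sums over coding genes gave 6 lower in senescent against young whole cells, 4 higher in senescent against young mitoplasts (median −1.75), 16 higher in mitoplast against whole young cells and 8 higher in mitoplast against whole senescent cells (median −1.09). Of all coding genes, 16.9% were then lower in the whole-cell comparison, and 29.5%, 22.4% and 25.7% were higher in the others, in that order. Median-of-ratios scaling gave 7 lower in senescent against young whole cells, a median of −2.07 in senescent against young mitoplasts, 16 higher in mitoplast against whole young cells and 6 higher (median −1.20) in mitoplast against whole senescent cells. With that scaling 17.9% of all coding genes were lower in senescent against young whole cells. In mitoplast against whole cells 24.1% were higher in young and 23.7% in senescent cells. These scalings moved the all-gene median in whole cells of senescent against young to 0.065 and −0.028, and those of the other comparisons to between −1.16 and 0.0089. A pseudocount of 0.1 gave medians of −3.54 in senescent against young mitoplasts and −2.91 in mitoplast against whole senescent cells. The all-gene medians with it were −3.06 and −3.59, in that order. A filter of 5 FPKM gave 4 lower in mitoplast against whole young cells, and adding assembled transcripts of a locus with no other coding gene, chosen after seeing the data, gave 2 higher in senescent against young whole cells.

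For single members above 0 in both libraries, 78 of 975 values under an alternative had the other sign, in 23 members. Most came with rescaling: of the members, 8 of 19 in senescent against young mitoplasts and 8 of 20 in mitoplast against whole senescent cells turned under equal sums, and 7 and 8 under median-of-ratios scaling. In whole cells of senescent against young, 5 of 31 turned under equal sums and 3 under median-of-ratios scaling, and in mitoplast against whole young cells 5 of 30 under either. The following had a ratio past 1 before they turned. In senescent against young whole cells, MTX1 turned to 0.25 with all annotated transcripts, with or without assembled ones by either rule, and TIMM10 to 0.18 over transcripts of 600 nt or more. In senescent against young mitoplasts, equal sums gave TIMM17A 0.28, PMPCA 0.45 and PHB2 0.47, and median-of-ratios scaling gave PMPCA 0.048 and PHB2 0.049. In mitoplast against whole senescent cells, TRAP1 turned to 0.47 with all annotated transcripts, with or without assembled ones. There equal sums gave TOMM20 0.29, TOMM70 0.35, TIMM17A 0.37, HSPA9 0.58 and HSPE1 0.31, and median-of-ratios scaling gave TOMM20 0.075, TOMM70 0.14, TIMM17A 0.16, HSPA9 0.36 and HSPE1 0.10. Leaving out a library was not possible with 1 in each group.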
